A study of Mus musculus with 16 samples.

Results

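The 40 genes described here encode chaperones, which help proteins reach and keep their folded form, and regulators of the unfolded protein response, the signalling that runs from the endoplasmic reticulum (ER) when unfolded protein builds up there. They were taken by symbol, 40 of the 40879 gene symbols counted in mouse kidney. No measured value entered the rule, but earlier results of these data were known when the list was chosen. By role they comprise 7 heat-inducible cytosolic chaperones and co-chaperones, 5 other cytosolic chaperones, 3 mitochondrial chaperones, 14 ER chaperones and folding enzymes, 4 genes grouped as regulators of the unfolded protein response and 7 subunits of the cytosolic chaperonin CCT. The 4 grouped as regulators are Xbp1, Atf4, Ddit3 and Herpud1, the last a component of ER protein degradation.

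The kidneys came from wild-type male C57BL/6 mice in 4 groups of libraries. Old + YM (3 libraries) and Old + PM (3 libraries) were aged mice given the herbal formulas Yukmijihwang-tang (YM) or Palmijihwang-tang (PM) by mouth at 100 mg/kg/day, 5 days a week, between 19 and 24 months of age. Old (5 libraries) were aged mice left untreated, for which the sources used here do not state an age at sampling, and Young (5 libraries) were mice 3 months old. All 3 aged groups had 5 months of acclimatization, and a passage of the design text names YM where the PM dose is described. The labels do not state that each library came from a separate mouse, so the p-values below measure the spread between these libraries, which may be partly technical.

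RNA was read with QuantSeq, which sequences the 3' end of each transcript, and the libraries held 8223008 to 10914515 counts. Values below are in CPM, edgeR's counts relative to library size, with library sizes scaled by the trimmed mean of M values (TMM). A gene was called when its Benjamini-Hochberg adjusted p from edgeR's quasi-likelihood test, adjusted over all 14665 genes tested, was under 0.05, and the same fit gave the standard error (SE) printed beside a log2 fold change. All 40 members passed the filter on low counts. Their lowest raw count in a library was 15, for Hspb8. All 15 kidney markers examined were measured, and their summed level was 22103 to 24484 CPM in Old + YM, 26059 to 32675 CPM in Old + PM, 18494 to 30230 CPM in Old and 36599 to 46112 CPM in Young libraries. In Old against Young 1 of these 15 markers fell, 1 rose and 13 were not called, with a median log2 fold change of -0.11. A sum weighs abundant markers most, so it does not describe each marker. Levels in whole kidney cannot tell fewer cells of a type from less RNA per cell.

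Cytosolic chaperones hold newly made or damaged proteins in a foldable state. Under heat or proteotoxic stress the heat shock factor HSF1 binds heat shock elements in the promoters of many of their genes. In the ER, unfolded protein engages the sensors IRE1, PERK and ATF6, which act through the transcription factors XBP1, ATF4 and cleaved ATF6. ATF6 and XBP1 act on ER stress elements in the promoters of ER chaperone genes, while ATF4 induces CHOP (encoded by Ddit3). Kidney tubule cells make and retrieve large amounts of membrane and secreted protein.

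Short stretches of promoter are shown for 4 members because they hold the elements just named, in members that the results below describe. RefSeq promoters on GRCm38.p6, covering 250 bases before to 50 bases after each annotated start, were found for 33 of the 40 members, and Hsp90aa1, Hsp90ab1, Hspa8, Hspa9, Hyou1, Manf and Cct4 were not among them. The ER stress element was searched on both strands as CCAAT and CCACG with 9 bases of any kind between them, and the heat shock element as GAA, TTC and GAA with 2 bases of any kind in each gap. The first line is from chr2:34772020-34772049 (plus strand), the second from chr14:118937822-118937851 (plus strand), the third from chr12:17266486-17266515 (plus strand) and the fourth from chr1:55088053-55088081 (minus strand). Capitals mark the ER stress element in the first 3 lines and a pair of overlapping heat shock elements in the last.
Hspa5: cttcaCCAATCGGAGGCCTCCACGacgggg
Dnajc3: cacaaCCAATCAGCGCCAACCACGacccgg
Pdia6: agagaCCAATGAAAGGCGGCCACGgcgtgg
Hspd1: gggccTTCCGGAAGGTTCTAGAAcggacc

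The ER stress element was found in the promoters of 37 of 27025 genes (0.137%), and 7 of these were members: Hspa5, Hsp90b1, Calr, Canx, Dnajc3, Pdia6 and Creld2. All 7 are among the 12 ER chaperone members with a promoter. Hsp90b1 held the element at more than a single place. The heat shock element was found in 179 genes (0.662%), among them Hsph1, Hspd1 and Hspe1. The stretch shown for Hspd1 lies in the promoter it shares head to head with Hspe1, so the same matches counted for both genes. A shorter motif, the amino acid response element core TGATGCAA that ATF4 partners recognise, was searched on both strands and found in 279 genes (1.03%), of which Herpud1 was the only member.

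Of the 40 members 17 fell, 2 rose and 21 did not pass the test in Old against Young kidneys, while over all genes tested 7.13% fell and 6.47% rose, 13.6% in all. The median log2 fold change of the members was -0.35, against 0.02 over all genes tested. At an unadjusted p under 0.05 there were 24 of the 40 members, against 28.1% of all genes. By role, 3 of 7 heat-inducible cytosolic members, 2 of 5 other cytosolic members, 2 of 3 mitochondrial members, 8 of 14 ER members and 2 of 7 CCT members fell. None of the 4 members grouped as regulators of the unfolded protein response fell. The 1 that rose was Herpud1, a component of ER protein degradation, while Xbp1, Atf4 and Ddit3 did not pass the test. The members together amounted to 5004 to 5670 CPM in Old + YM, 5352 to 5962 CPM in Old + PM and 5230 to 6806 CPM in Old libraries, against 7383 to 8443 CPM in Young libraries. The TMM factors were 0.85 to 0.96 in Young and 0.97 to 1.12 in aged libraries, so the gap between these sums depends in part on the scaling.

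**Figure D1:**
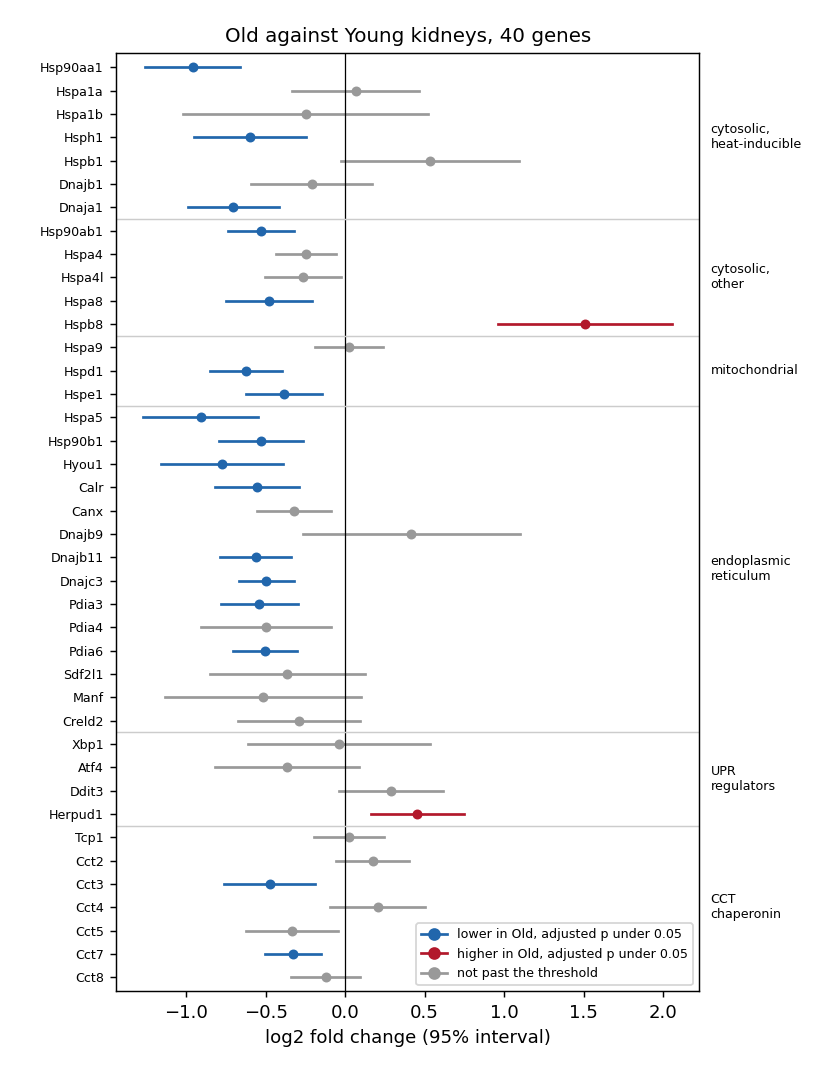
Log2 fold change of each of the 40 members in Old (n = 5) against Young (n = 5) kidneys, with its 95% interval, from edgeR's quasi-likelihood fit over all 16 libraries, ordered by role. The 17 members that fell (blue) include 8 of the 14 ER members, and the 2 that rose (red) are Hspb8 and Herpud1.

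Among the heat-inducible cytosolic members, Hsp90aa1, the inducible HSP90 chaperone, had the most negative log2 fold change of the 40. Its level was 154, 150, 166, 259 and 144 CPM in Old libraries, against 361, 367, 342, 347 and 279 CPM in Young libraries. Every Old library lay below every Young library, with Old 4 the closest to Young. This gave a log2 fold change of -0.96 (SE 0.14, adjusted p = 0.00030), a 1.95-fold lower level. Dnaja1, an HSP40 co-chaperone that delivers clients to HSP70, stood at 120, 131, 130, 102 and 79.5 CPM in Old libraries, against 162, 169, 191, 208 and 184 CPM in Young libraries. The groups did not overlap. This gave a log2 fold change of -0.70 (SE 0.14, adjusted p = 0.0024). Exons of Smu1 on the opposite strand overlap the 3' end of Dnaja1, and since the sources used here do not state the counting strand, reads of the 2 genes cannot be told apart.

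Hsph1, an HSP110 nucleotide exchange factor for HSP70, was at 57.1, 77.8, 75.6, 101 and 50.9 CPM in Old libraries, against 123, 126, 108, 114 and 77.9 CPM in Young libraries. The groups overlapped, through Old 4 and through the low value of Young 5. Hsph1 had a log2 fold change of -0.60 (SE 0.17, adjusted p = 0.025). The call was lost without Young 1, Young 2, Young 3, Young 4, Old 1 or Old 5, with adjusted p up to 0.071. The stress-inducible HSP70 genes did not pass the test. Hspa1a stood at 13.2, 11.4, 10.4, 10.04 and 10.2 CPM in Old libraries, against 7.23, 10.8, 12.1, 12.3 and 10.4 CPM in Young libraries (log2 fold change 0.07, SE 0.19, adjusted p = 0.87). Hspa1b stood at 6.27, 6.03, 11.5, 5.85 and 8.89 CPM in Old libraries, against 4.75, 8.03, 12.3, 9.82 and 10.8 CPM in Young libraries (log2 fold change -0.25, SE 0.36, adjusted p = 0.72). Both ranges overlapped widely. Hspa1a and Hspa1b are near-identical copies that share 58.8% and 62.3% of the 50-base words of their longest transcripts but no such word in the last 500 bases, so reads from outside their 3' ends could be split between them, and Gm20481 overlaps the 3' end of Hspa1a on the opposite strand. The remaining heat-inducible members were Hspb1, a small heat shock protein (log2 fold change 0.53, adjusted p = 0.20), and Dnajb1, the HSP40 partner of HSP70 (-0.21, adjusted p = 0.49).

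Of the other cytosolic chaperones, Hsp90ab1, the constitutive HSP90, and Hspa8, the constitutive HSP70, fell. Hsp90ab1 was at 963, 1015, 1040, 1294 and 948 CPM in Old libraries, against 1599, 1576, 1476, 1617 and 1328 CPM in Young libraries. The highest Old library, Old 4, came close to the lowest Young library without reaching it. The fit put the log2 fold change at -0.53 (SE 0.10, adjusted p = 0.0017). Hspa8 stood at 287, 295, 284, 345 and 219 CPM in Old libraries, against 404, 436, 392, 410 and 353 CPM in Young libraries. Here too no Old library reached the Young range. The log2 fold change was -0.48 (SE 0.13, adjusted p = 0.018), and leaving out Young 2 (adjusted p = 0.058) or Young 4 (adjusted p = 0.051) ended the call.

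Hspb8, a small heat shock protein that works with the co-chaperone BAG3 in selective autophagy, went the other way, with the most positive log2 fold change of the 40. Its level was 8.66, 9.09, 7.20, 13.4 and 9.39 CPM in Old libraries, against 4.55, 3.56, 1.92, 4.64 and 1.97 CPM in Young libraries. All 5 Old libraries lay above all 5 Young libraries. Hspb8 had a log2 fold change of 1.51 (SE 0.26, adjusted p = 0.0010), a 2.85-fold higher level. The HSP110 relatives did not pass the test, with log2 fold changes of -0.25 for Hspa4 (adjusted p = 0.079) and -0.27 for Hspa4l (adjusted p = 0.13), although the Old and Young libraries of Hspa4 did not overlap.

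In mitochondria, HSP60 and HSP10 form the folding chamber and mortalin is the matrix HSP70. Hspd1, which encodes HSP60, was at 182, 197, 231, 199 and 143 CPM in Old libraries, against 303, 276, 278, 324 and 286 CPM in Young libraries. The groups stood well apart. The fit put the log2 fold change at -0.62 (SE 0.11, adjusted p = 0.0010). Hspe1, which encodes HSP10, was at 179, 179, 211, 224 and 139 CPM in Old libraries, against 250, 233, 241, 268 and 222 CPM in Young libraries. Old 4 lay just above Young 5, so the groups touched. With a log2 fold change of -0.38 (SE 0.12, adjusted p = 0.032) Hspe1 was called, but not under upper quartile scaling (adjusted p = 0.056). Nor was it called without Young 1, Young 2, Young 3, Young 4, Old 1, Old 2 or Old 5, with adjusted p up to 0.11. Hspa9, which encodes mortalin, had a log2 fold change of 0.02 with a 95% interval of -0.19 to 0.24 (adjusted p = 0.91).

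In the ER, 8 of the 14 chaperones and folding enzymes fell, led in size by the HSP70 member Hspa5. Hspa5, which encodes BiP, the ER HSP70 that also keeps the stress sensors inactive, was at 287, 331, 312, 575 and 297 CPM in Old libraries, against 648, 684, 693, 812 and 547 CPM in Young libraries. Old 4 stood inside the Young range and the other 4 Old libraries far below it. Hspa5 had a log2 fold change of -0.91 (SE 0.17, adjusted p = 0.0023), a 1.88-fold lower level. Hsp90b1, the ER HSP90 (GRP94), was at 173, 149, 199, 173 and 189 CPM in Old libraries, against 214, 237, 263, 239 and 323 CPM in Young libraries. The groups did not overlap and Old 4 did not stand apart. Hsp90b1 had a log2 fold change of -0.53 (SE 0.13, adjusted p = 0.0085). Hyou1, an ER HSP110 and exchange factor for BiP, was at 10.7, 6.79, 9.49, 11.5 and 8.69 CPM in Old libraries, against 12.5, 12.7, 20.1, 16.4 and 18.9 CPM in Young libraries. All Old values were below all Young values. The fit put the log2 fold change at -0.77 (SE 0.18, adjusted p = 0.0083).

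Of the 3 BiP co-chaperones of the HSP40 family, Dnajc3 and Dnajb11 fell. Dnajc3 (P58IPK) stood at 135, 126, 132, 137 and 119 CPM in Old libraries, against 174, 166, 185, 200 and 190 CPM in Young libraries. Its Old and Young values formed tight, separate groups. This gave a log2 fold change of -0.50 (SE 0.08, adjusted p = 0.00089), the smallest adjusted p of the ER members. Dnajb11 (ERdj3) stood at 46.2, 58.9, 55.4, 53.6 and 53.1 CPM in Old libraries, against 68.6, 73.3, 86.7, 77.5 and 89.1 CPM in Young libraries. These groups were also separate. Its log2 fold change was -0.56 (SE 0.11, adjusted p = 0.0018). Dnajb9 (ERdj4), another BiP co-chaperone, did not pass the test, with a log2 fold change of 0.42 and a 95% interval of -0.27 to 1.10 (adjusted p = 0.44).

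Calreticulin and calnexin hold glycoproteins while they fold. Calr was at 343, 337, 328, 516 and 318 CPM in Old libraries, against 541, 542, 551, 609 and 460 CPM in Young libraries. Only Old 4 entered the Young range. The log2 fold change of Calr was -0.55 (SE 0.13, adjusted p = 0.0067), while that of Canx was -0.32 (SE 0.11) and did not pass (adjusted p = 0.061).

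Protein disulfide isomerases make and rearrange disulfide bonds. Pdia3 (ERp57), which works with calreticulin and calnexin, was at 228, 194, 222, 306 and 231 CPM in Old libraries, against 346, 329, 341, 410 and 291 CPM in Young libraries. Old 4 lay above Young 5 and the other Old libraries lay below all Young libraries. Its log2 fold change was -0.54 (SE 0.12, adjusted p = 0.0046). Pdia6 (P5) was at 104, 93.8, 107, 100 and 108 CPM in Old libraries, against 130, 133, 149, 151 and 165 CPM in Young libraries. Its groups did not overlap. Its log2 fold change was -0.50 (SE 0.10, adjusted p = 0.0018), and exons of Atp6v1c2 on the opposite strand overlap its 3' end. Pdia4 (ERp72) had a log2 fold change of -0.50 with a larger error (SE 0.19, adjusted p = 0.10). The small secreted or luminal factors induced by ER stress did not pass either, with log2 fold changes of -0.36 for Sdf2l1, -0.52 for Manf and -0.29 for Creld2, and adjusted p between 0.26 and 0.33.

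**Figure D2:**
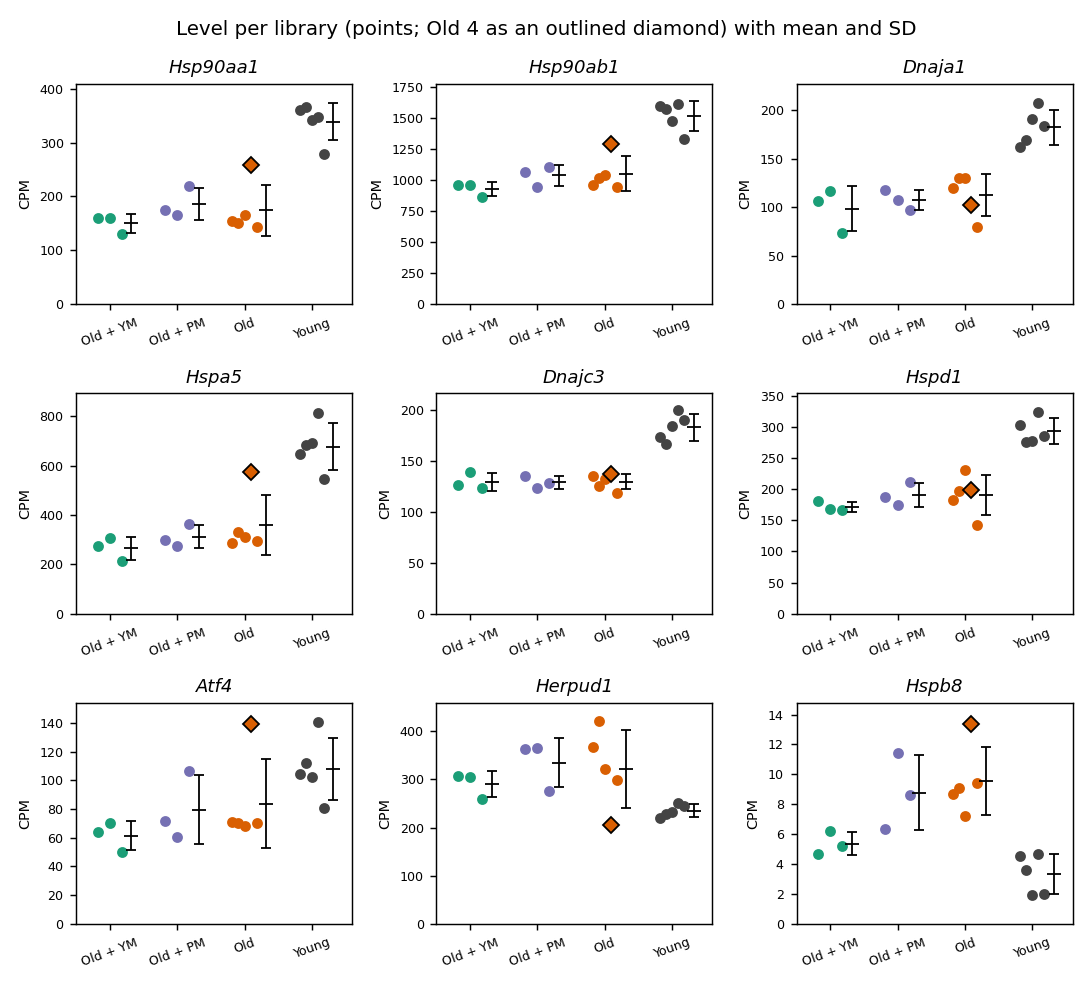
Level in CPM on TMM-scaled library sizes of 9 members in every library of Old + YM (n = 3), Old + PM (n = 3), Old (n = 5) and Young (n = 5), with the group mean and SD beside the points. Old 4, the outlined diamond, was the highest Old library for Hsp90aa1 (259 CPM), Hspa5 (575 CPM) and Atf4 (139 CPM), but for Herpud1 (205 CPM) it was the lowest.

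The regulators of the unfolded protein response did not include a member that fell. Xbp1, the target of the IRE1 splicing reaction, was at 67.5, 42.4, 51.0, 28.5 and 49.1 CPM in Old libraries, against 38.6, 32.5, 57.8, 35.9 and 81.0 CPM in Young libraries. The ranges overlapped almost fully, and the log2 fold change was -0.04 with a 95% interval of -0.61 to 0.53 (adjusted p = 0.94). Counts per gene do not distinguish spliced from unspliced Xbp1. Atf4, the transcription factor of the PERK branch that is regulated largely at translation, was at 71.1, 70.5, 68.0, 139 and 70.1 CPM in Old libraries, against 104, 112, 102, 141 and 80.8 CPM in Young libraries. Old 4 matched the highest Young library while the other 4 Old libraries lay together below all Young libraries. The log2 fold change was -0.37 (SE 0.21, adjusted p = 0.29), and without Old 4 it was -0.61 and passed (adjusted p = 0.0091). Ddit3, which encodes the pro-apoptotic factor CHOP, was at 15.8, 25.3, 21.3, 27.1 and 22.4 CPM in Old libraries, against 17.5, 20.02, 14.2, 19.5 and 20.6 CPM in Young libraries. The ranges overlapped (log2 fold change 0.29, SE 0.16, adjusted p = 0.24), and the 3' end of Ddit3 overlaps exons of Mars on the opposite strand.

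Herpud1, an ER membrane component of the machinery that degrades misfolded ER proteins, rose. It was at 367, 422, 322, 205 and 298 CPM in Old libraries, against 219, 229, 232, 251 and 246 CPM in Young libraries. Old 4 lay below all Young libraries and the other 4 Old libraries above them. Herpud1 had a log2 fold change of 0.45 (SE 0.14, adjusted p = 0.037). The call was lost without any of Young 1, Young 2, Young 3, Young 4, Old 1, Old 2, Old 3 or Old 5, with adjusted p up to 0.10, and with the clock score described below as a term the estimate was -0.21 (adjusted p = 0.54).

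CCT is the double-ring chaperonin that folds actin and tubulin. Cct3 was at 102, 128, 114, 152 and 95.1 CPM in Old libraries, against 200, 170, 161, 167 and 125 CPM in Young libraries. Old 2 and Old 4 lay above Young 5, so the groups overlapped. The log2 fold change of Cct3 was -0.48 (SE 0.14, adjusted p = 0.028). The call was lost without any of Young 1, Young 2, Young 3, Young 4, Old 1, Old 3 or Old 5, with adjusted p up to 0.096. Cct7 stood at 112, 128, 128, 135 and 117 CPM in Old libraries, against 160, 147, 147, 165 and 158 CPM in Young libraries, with no overlap. Cct7 had a log2 fold change of -0.33 (SE 0.08, adjusted p = 0.013), and it lost the call without Young 4 (adjusted p = 0.053). The other subunits of the same complex ranged in log2 fold change between -0.33 for Cct5 and 0.20 for Cct4, with 0.03 for Tcp1, 0.17 for Cct2 and -0.12 for Cct8, and had adjusted p between 0.12 and 0.91.

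Old and Young libraries did not overlap for 12 members that were lower in Old and for 1 that was higher, while the same held for 4.97% and 4.21% of all genes tested. Against all 11 aged libraries, treated or not, the 5 Young libraries stood above for 10 members: Hsp90aa1, Dnaja1, Hsp90ab1, Hspa4, Hspa8, Hspd1, Hyou1, Dnajb11, Dnajc3 and Cct7. They stood below for Hspb8 alone. Over all genes tested these shares were 2.99% for lower and 2.21% for higher in the aged libraries.

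**Figure D3:**
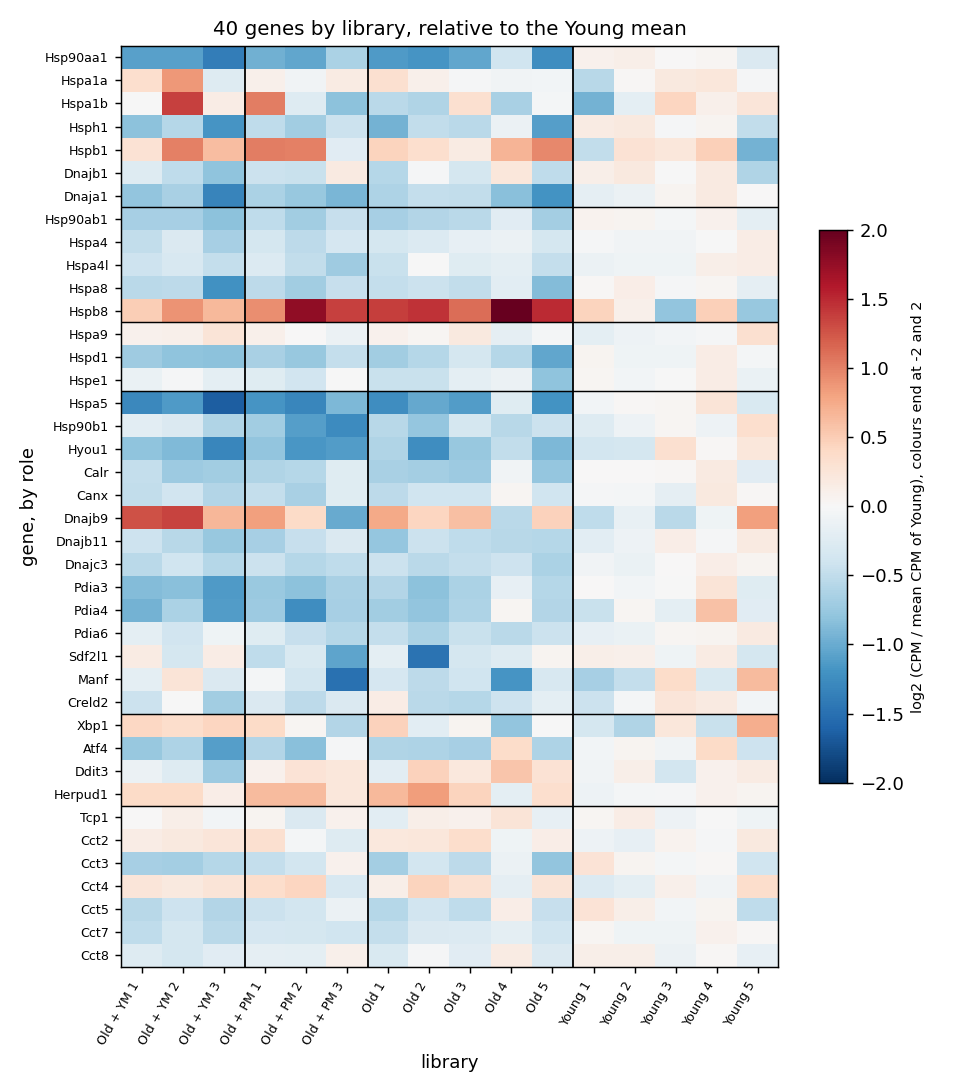
Log2 of each library's CPM over the Young mean for the 40 members by role (down) and the 16 libraries by group (across), with colours ending at -2 and 2. The aged columns are blue for most cytosolic, ER and mitochondrial members, while Hspb8 is red, and Old 4 is paler than the other Old columns.

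The calls depended on which libraries were used. Without Old 4, 21 members fell, with Canx, Pdia4, Atf4 and Cct5 added, and without Young 4 the count was 12. Calls over all genes moved too, with 1393 genes lower without Old 4 and 596 without Young 4, compared with 1046 with every library. Upper quartile scaling left 16 members lower and 2 higher, while over all genes it moved the split to 1104 higher and 758 lower, compared with 949 higher and 1046 lower under TMM.

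Old 4 stood apart from the other Old libraries. It was the highest Old library for 12 of the 17 members that fell (70.6%), and for 48.7% of all 1046 genes that fell. It lay within the Young range for 6 of the 17 (35.3%, against 29.0% of all genes that fell), namely Hsph1, Hspe1, Hspa5, Calr, Pdia3 and Cct3. The same library also differed in clock genes. A clock score was taken as the mean standardised log2 CPM of 10 clock genes, among them Dbp, Per3, Nr1d2 and Bhlhe41, minus that of 5 genes of the opposite phase, among them Bmal1, Clock and Npas2. The score was 1.40, 1.62 and -0.09 in Old + YM libraries, 0.90, 1.22 and 0.04 in Old + PM libraries, 1.41, 1.93, 2.12, -1.64 and 1.53 in Old libraries and -2.64, -1.998, -2.88, -1.95 and -0.97 in Young libraries. Every Old library but Old 4 lay far above the Young range, and Old 4 lay within it. Of these genes 8 of the 10 rose and 3 of the 5 fell in Old kidneys.

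With the clock score as a term in the fit, 3 members fell, namely Dnaja1 (log2 fold change -1.03, adjusted p = 0.010), Hsp90b1 (-0.77, adjusted p = 0.030) and Dnajb11 (-0.65, adjusted p = 0.041). Hspb8 rose (1.94, adjusted p = 0.0074), and over all genes 501 were called. Hspa5 had a log2 fold change of -0.38 (adjusted p = 0.34) and Hsp90aa1 of -0.46 (adjusted p = 0.14) in that fit. Since the score separated 4 of the 5 Old libraries from the Young libraries, age and clock state cannot be told apart with these groups, and the sources used here do not state the time of day of collection.

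Transcripts of cold-inducible RNA-binding proteins, which react to falling temperature where heat shock genes react to rising temperature, rose in Old kidneys. Of the 40 members 17 fell and 2 rose, and 4 of the 7 heat-inducible members did not pass the test. Cirbp was at 53.1, 65.9, 49.4, 49.6 and 63.3 CPM in Old libraries, against 42.6, 31.8, 26.9, 33.1 and 32.1 CPM in Young libraries (log2 fold change 0.76, SE 0.14, adjusted p = 0.0012). Rbm3 was at 5.18, 6.79, 5.84, 5.07 and 5.59 CPM in Old libraries, against 1.96, 2.03, 2.94, 3.13 and 3.02 CPM in Young libraries (log2 fold change 1.12, SE 0.23, adjusted p = 0.0030). For both genes every aged library, Old 4 included, lay above every Young library. With the clock score as a term Cirbp kept its call and Rbm3 lost it. The part of whatever moved these genes in the lower chaperone levels was not tested.

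**Figure D4:**
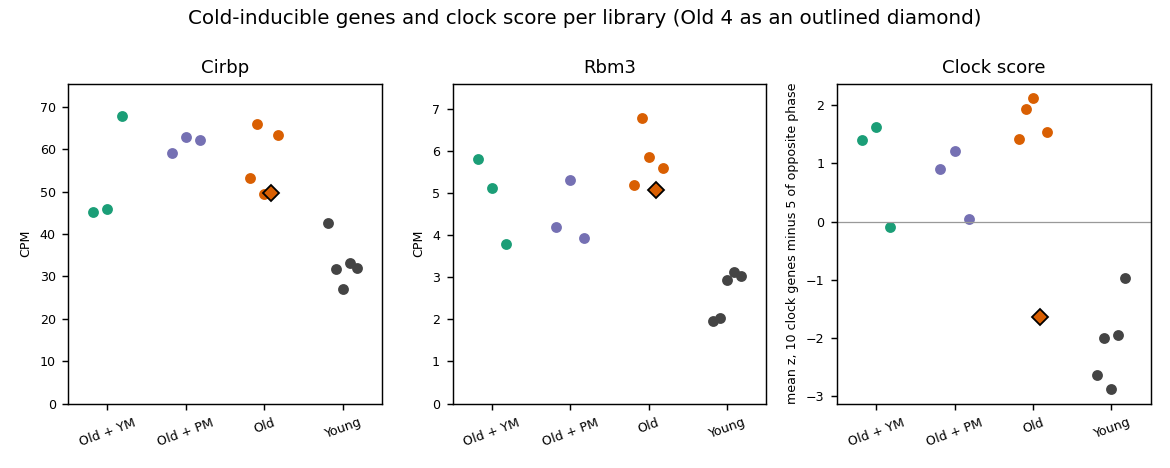
Cirbp and Rbm3 levels in CPM and the clock score (mean of standardised log2 CPM, 10 clock genes minus 5 of the opposite phase) in each library, with Old 4 as an outlined diamond. The aged libraries lie above all Young libraries for Cirbp and Rbm3, while the clock score of Old 4 (-1.64) lies among those of the Young libraries.

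Markers of immune cells moved with the comparison as well. Of 9 macrophage markers 6 rose and none fell. This count was 2 without Young 1, Young 3 or Young 4, 3 without Young 2, Young 5 or any single Old + YM library, 2 with only the 2 groups compared or with no filter on low counts, and 0 with the clock score as a term. Their summed level was 222 to 266 CPM in Old + YM, 248 to 487 CPM in Old + PM, 164 to 996 CPM in Old and 154 to 197 CPM in Young libraries. The highest of these values was Old 5. Without Old 5, 14 members and 1 macrophage marker fell, 4 macrophage markers rose, and 660 genes fell over all genes tested. Of 6 tested B cell and plasma cell markers 3 rose and none fell, and the 8 markers of the list together were at 180 to 408 CPM in Old + YM, 80.6 to 93.6 CPM in Old + PM, 121 to 195 CPM in Old and 7.01 to 18.5 CPM in Young libraries. Of the 15 kidney markers, Kap, a proximal tubule transcript, fell (log2 fold change -1.02, SE 0.15) and Slc12a3, the distal tubule sodium chloride transporter, rose (0.63, SE 0.11). For 8 markers of other tissues none of the 6 tested was called, 1 had an unadjusted p under 0.05, and the adrenal marker Cyp11b1 had no count in any library. The summed level of these 8 was 81.4 to 772 CPM in Old + YM, 105 to 502 CPM in Old + PM, 116 to 1568 CPM in Old and 87.3 to 464 CPM in Young libraries. Old 1 (1568 CPM) and Old 3 (1331 CPM) stood apart from the other Old libraries, through the red blood cell genes Hbb-bs (977 and 763 CPM) and Hba-a1 (587 and 527 CPM). Without Old 1, 14 members fell among 782 genes that fell in all, and without Old 3, 16 members among 852. With every library 17 members fell among 1046 genes. The part of any of these cells in the lower chaperone levels was not tested.

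The promoter elements shown above were set beside these calls. Of the 7 members with an ER stress element 5 fell (Hspa5, Hsp90b1, Calr, Dnajc3 and Pdia6), while of all 14 ER members 8 fell. Of 11 tested genes outside the members with the element 1 fell (9.09%), against 7.13% of all genes tested. All 3 members with a heat shock element (Hsph1, Hspd1 and Hspe1) fell, while of all 40 members 17 fell. Hspd1 and Hspe1 share the same matches, and the calls of Hsph1 and Hspe1 were lost without some single libraries. Of 60 tested genes outside the members with the heat shock element 4 fell (6.67%) and 4 rose. Any part of either element in the lower levels was not tested. A match describes letters in the promoter and does not show binding.

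Other genes of the same pathways were counted from lists, beside the 7.13% of all genes tested that fell and the 6.47% that rose. Of 30 co-chaperones and heat shock factors 8 fell (26.7%) and none rose, with a median log2 fold change of -0.11. Without Young 4 there were 4 lower and 1 higher, and without Young 2 or Young 3 there were 5 lower. The 4 with the smallest adjusted p were Cacybp, an HSP90 co-chaperone (-0.67, adjusted p = 0.0011), Chordc1, a CHORD-domain HSP90 co-chaperone (-0.61, adjusted p = 0.0046), the HSP40 gene Dnaja4 (-0.65, adjusted p = 0.0049) and Ahsa1, which activates the HSP90 ATPase (-0.44, adjusted p = 0.015). Of 22 tested sensors of the unfolded protein response and components of ER-associated degradation 4 fell and none rose, namely Vcp, the ATPase that extracts proteins from the ER membrane (-0.41, adjusted p = 0.0035), the ER membrane protein Derl2 (-0.60, adjusted p = 0.0040), the ATF6 relative Atf6b (-0.42, adjusted p = 0.027) and Sel1l, the partner of the ligase HRD1 (-0.31, adjusted p = 0.028). This count was 2 without Young 3, Young 4, Old 2 or Old 5, and 7 without Old 4.

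Of 18 further ER folding enzymes 4 fell and none rose: Erp29 (-0.66, adjusted p = 0.00070), the disulfide isomerase P4hb (-0.52, adjusted p = 0.00098), the glucosyltransferase Uggt1, which tags unfolded glycoproteins (-0.43, adjusted p = 0.0078), and the oxidase Ero1a (-0.44, adjusted p = 0.044). Ero1a was called in 3 of the 16 fits that each left out a library, and not under upper quartile scaling, with no filter, with the 2 groups alone or with the replicate block. Without Old 4 6 of the 18 fell. Of 13 mitochondrial chaperones and proteases the ClpXP unfoldase gene Clpx (-0.83, adjusted p = 0.0017), Spg7 (-0.35, adjusted p = 0.033) and the mitochondrial HSP90 Trap1 (-0.34, adjusted p = 0.037) fell and none rose. Clpx alone of these 3 was called under upper quartile scaling and without Young 2, Young 3, Young 4, Old 1 or Old 5. Targets of ATF4 were mixed, with a median of 0.28: of 19 tested, the serine pathway genes Shmt2 (-0.65, adjusted p = 0.0056) and Psat1 (-0.68, adjusted p = 0.014) fell, and the stress-induced regulator Nupr1 rose (1.13, adjusted p = 0.036), a call lost without any of Young 1, Young 2, Young 3, Young 4, Old 4 or Old 5. Psat1 lost its call without Young 2 (adjusted p = 0.051). The share of tested ATF4 targets that fell was 10.5%, near the 7.13% of all genes tested. Of 15 genes of the CCT and prefoldin folding route outside the members 1 fell, the prefoldin subunit Pfdn1 (-0.33, adjusted p = 0.035), and none rose. This share, 6.67%, was near that of all genes tested (7.13%). Pfdn1 lost its call under upper quartile scaling and without Young 1, Young 2, Young 4, Old 1 or Old 5. With the clock score as a term, the fit called 0 of 30 co-chaperones, 1 of 22 sensors and degradation genes and 2 of 18 ER folding enzymes lower. It also called 0 of 13 mitochondrial genes, 0 of 19 ATF4 targets and 0 of 15 CCT and prefoldin genes lower. Of the 4 ER folding enzymes named above, P4hb alone kept its call in that fit.

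Treatment with YM or PM was compared with the untreated Old kidneys to ask whether either formula shifted chaperone levels in aged mice. No member was called in either comparison. In Old + YM against Old, edgeR's quasi-likelihood test called 3 of 14665 genes (0.0205%) and no member, DESeq2 called 49 genes and no member, and 6 members had an unadjusted p under 0.05, against 9.48% of all genes. In Old + PM against Old, edgeR called 0 genes (0%) and DESeq2 called 0, and 1 member had an unadjusted p under 0.05, against 6.16% of all genes. The median log2 fold change of the members was -0.15 with YM and -0.02 with PM, and over all genes it was -0.03 and -0.02. The member median with YM depended on single libraries. It was -0.03 without Old 4, -0.05 without Old + YM 3 and -0.17 without Old 5. Without Old 4, Old + YM 3 and Old + PM 3 together it was 0.005. Both comparisons use the same 5 Old libraries.

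The members with the smallest adjusted p after YM were Ddit3, Pdia3 and Hspb8. Ddit3 was at 16.9, 15.3 and 11.04 CPM in Old + YM libraries, against 15.8, 25.3, 21.3, 27.1 and 22.4 CPM in Old libraries. Only Old 1 lay within the YM range. The fit put the log2 fold change at -0.64 with a 95% interval of -1.02 to -0.25 (SE 0.19, adjusted p = 0.29). Pdia3 was at 189, 193 and 157 CPM in Old + YM libraries, just below the lowest Old library at 194 CPM (log2 fold change -0.40, SE 0.14, adjusted p = 0.36). In Old + PM libraries Pdia3 was at 204, 195 and 219 CPM, within the Old range (log2 fold change -0.20, adjusted p = 0.86).

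Hspb8 was at 4.66, 6.20 and 5.22 CPM in Old + YM libraries, below all 5 Old libraries. These values lay between the Old and the Young ranges, with the lowest of them next to the highest Young library at 4.64 CPM. This gave a log2 fold change of -0.83 with a 95% interval of -1.46 to -0.21 (SE 0.30, adjusted p = 0.39). In Old + PM libraries Hspb8 was at 6.34, 11.4 and 8.59 CPM (log2 fold change -0.12, adjusted p = 0.97). Old + PM 1 lay below the Old range and the others within it. The Old + YM and Old libraries did not overlap for 4 members, Pdia3 and Hspb8 lower and Pdia6 and Manf higher, while this held for 3.95% (lower) and 5.15% (higher) of all genes tested.

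Hspa5 was at 276, 307 and 215 CPM in Old + YM libraries and at 300, 274 and 363 CPM in Old + PM libraries. All 6 lay below the lowest Young library at 547 CPM. The log2 fold changes against Old were -0.44 with YM (95% interval -0.86 to -0.02, adjusted p = 0.51) and -0.21 with PM (95% interval -0.63 to 0.21, adjusted p = 0.90). The Old group here includes Old 4 at 575 CPM, while the other Old libraries were at 287 to 331 CPM. Hspa1a was at 13.4, 19.3 and 8.79 CPM in Old + YM libraries and 11.4, 10.1 and 11.9 CPM in Old + PM libraries. Hspa1b was at 9.11, 23.6 and 10.1 CPM in Old + YM libraries and 18.6, 7.61 and 5.17 CPM in Old + PM libraries. In each treated group of Hspa1b 1 library stood well above the other 2, and the log2 fold change with YM was 0.88 with a 95% interval of 0.02 to 1.75 (adjusted p = 0.52).

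Atf4 was at 63.9, 70.1 and 50.3 CPM in Old + YM libraries and 71.8, 60.5 and 107 CPM in Old + PM libraries, where the third PM library was the high one. Xbp1 was at 65.3, 62.5 and 66.6 CPM in Old + YM libraries and 64.0, 50.4 and 32.6 CPM in Old + PM libraries. The YM values of Xbp1 lay within the Old range. Herpud1 was at 306, 306 and 259 CPM in Old + YM libraries and 363, 366 and 276 CPM in Old + PM libraries, above all 5 Young libraries in each case. Hsp90aa1 was at 161, 160 and 130 CPM with YM and 174, 165 and 220 CPM with PM. Hsp90ab1 was at 960, 963 and 865 CPM with YM and 1063, 943 and 1105 CPM with PM. Neither HSP90 gene reached its Young range in a treated library.

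Dnaja1 stood at 106, 117 and 72.8 CPM with YM and 118, 108 and 96.9 CPM with PM. Dnajc3 stood at 126, 139 and 123 CPM with YM and 136, 123 and 129 CPM with PM. Hspd1 stood at 180, 168 and 166 CPM with YM and 187, 174 and 212 CPM with PM. None of these treated libraries reached the lowest Young library of its gene. Hspe1 differed in this, at 222, 240 and 211 CPM with YM and 206, 185 and 243 CPM with PM, where libraries of both groups entered the Young range of 222 to 268 CPM. Its log2 fold change against Old was 0.27 with YM (95% interval -0.01 to 0.54, adjusted p = 0.53).

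Among further members that fell in Old kidneys, Hspa8 was at 274, 277 and 172 CPM with YM and 277, 245 and 289 CPM with PM. Hyou1 was at 9.21, 8.76 and 6.54 CPM with YM and 9.32, 7.17 and 7.45 CPM with PM, and Cct7 at 109, 122 and 107 CPM with YM and 123, 122 and 118 CPM with PM. Dnajb11 was at 59.6, 53.9 and 46.5 CPM with YM and 49.8, 57.5 and 64.4 CPM with PM. All treated libraries lay below all Young libraries for these 4 genes. Pdia6 was at 126, 112 and 137 CPM with YM and 124, 106 and 98.5 CPM with PM, and Hsph1 at 61.9, 73.5 and 48.2 CPM with YM and 76.8, 67.4 and 81.8 CPM with PM. Calr was at 387, 328 and 336 CPM with YM and 357, 366 and 459 CPM with PM. For Pdia6 and Hsph1 1 treated library entered the Young range, and for Calr none did.

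**Figure D5:**
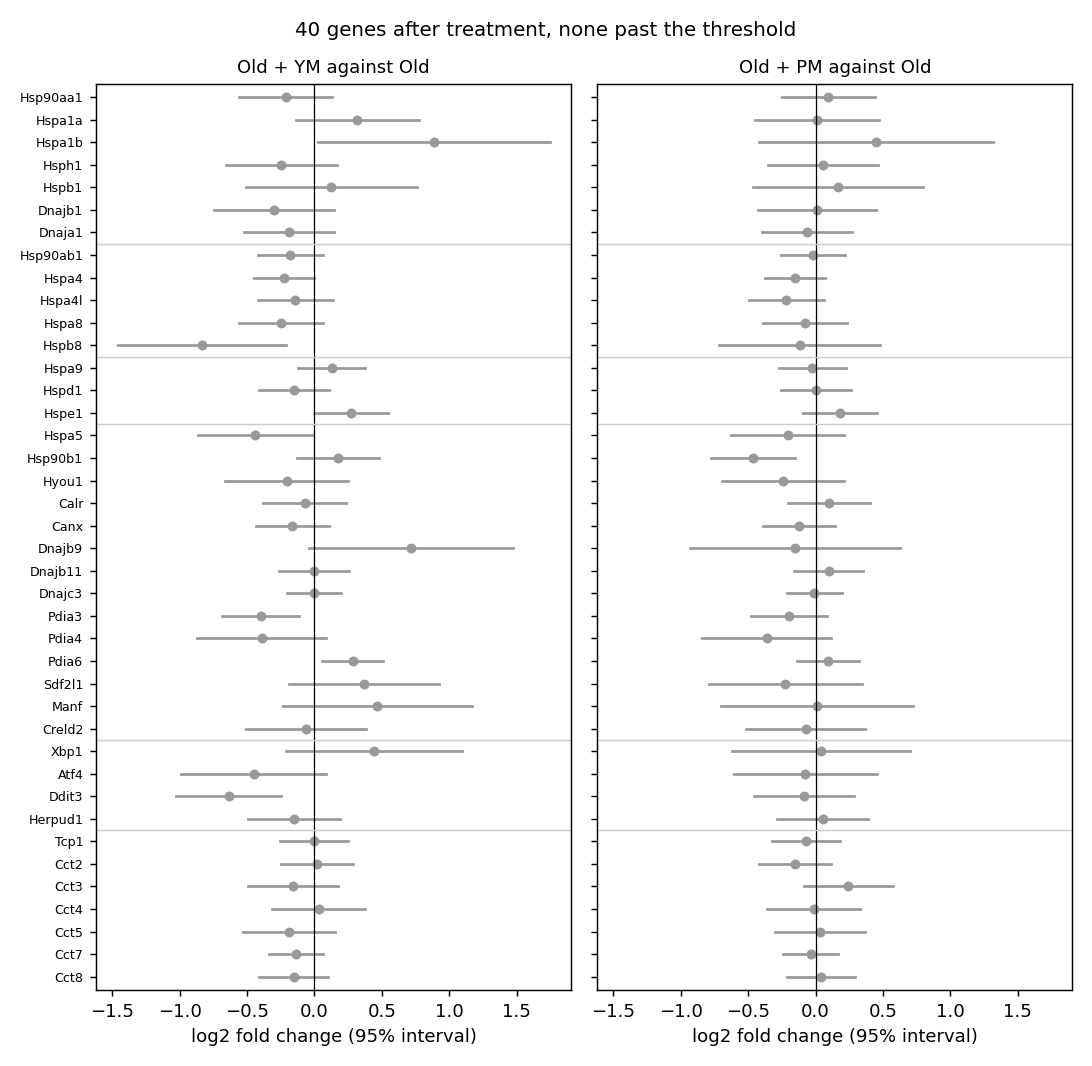
Log2 fold change of each of the 40 members in Old + YM (n = 3, left) and Old + PM (n = 3, right) against Old (n = 5), with its 95% interval, from edgeR's quasi-likelihood fit. No member passed the threshold in either comparison, and with YM the estimates farthest from 0 were those of Hspb8 (-0.83) and Hspa1b (0.88).

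After PM the smallest adjusted p of a member was that of Hsp90b1. Its level was 158, 119 and 107 CPM in Old + PM libraries, against 173, 149, 199, 173 and 189 CPM in Old libraries. Old + PM 1 lay within the Old range and the other 2 below it. Hsp90b1 had a log2 fold change of -0.47 with a 95% interval of -0.77 to -0.16 (SE 0.15, adjusted p = 0.79). Next came Hspa4l (-0.22, adjusted p = 0.84), at 36.1, 31.1 and 26.6 CPM in Old + PM libraries, against 32.0, 43.3, 36.9, 38.0 and 31.4 CPM in Old libraries, and Pdia4 (-0.36, adjusted p = 0.85), at 42.9, 30.2 and 45.1 CPM in Old + PM libraries, against 43.8, 41.1, 46.6, 73.6 and 47.5 CPM in Old libraries. Both overlapped the Old libraries. No member had Old + PM and Old libraries that did not overlap, compared with 2.10% (lower) and 1.92% (higher) of all genes tested.

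The formulas were also compared with each other. In Old + PM against Old + YM, edgeR's quasi-likelihood test called 0 genes (0%) and DESeq2 58 genes but no member, and 5 members had an unadjusted p under 0.05, against 12.8% of all genes. Hsp90b1 was at 158, 119 and 107 CPM in Old + PM libraries, against 220, 208 and 169 CPM in Old + YM libraries (log2 fold change -0.64, 95% interval -0.98 to -0.30, adjusted p = 0.24). Ddit3 was at 19.5, 22.3 and 21.5 CPM in Old + PM libraries, against 16.9, 15.3 and 11.04 CPM in Old + YM libraries (log2 fold change 0.55, SE 0.20, adjusted p = 0.30). Cct3 was at 118, 127 and 175 CPM in Old + PM libraries, against 104, 103 and 111 CPM in Old + YM libraries (log2 fold change 0.40, SE 0.18, adjusted p = 0.36). None of these 3 genes overlapped between the treated groups, which was so for 1 member lower and 6 higher with PM, and for 11.9% of all genes tested in each direction. In the pathway lists no gene was called after either treatment, while 1 to 4 genes a list had an unadjusted p under 0.05 with YM and 0 to 3 with PM.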

How the data were processed

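Per the labels' protocols, 500 ng of total RNA extracted with Trizol went into the Lexogen QuantSeq kit. The files deposited by the authors hold raw counts per gene symbol, whole numbers without normalization. Bowtie2, bedtools and the mm10 build are named per the submitters' processing notes, while the sources used here do not state versions, annotation, strand setting or how multiply aligned reads were handled. QuantSeq counts each transcript about once near its 3' end, so levels were compared between libraries and not between genes.

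edgeR 4.0.16 (R 4.3.3) was run on the counts: filterByExpr (minimum count 10, smallest group 3) kept 14665 of 40879 symbols, TMM scaled the libraries, and all 16 libraries entered 1 robust quasi-likelihood fit with group as its term. Old was set against Young, each treated group against Old, and the PM group against the YM group, in 4 comparisons that were two-sided with Benjamini-Hochberg adjustment over all genes tested at 0.05. Alternatives were upper quartile scaling, DESeq2 1.42.0, no filter, the compared groups alone, the replicate number as a block, the clock score as a covariate, and libraries left out. The fits were tested on simulated data, and no libraries were duplicates. The members and lists were chosen with earlier results of these data known. Values per library are given for members past the threshold in any comparison, the 3 smallest adjusted p where none passed, and Hspa1a, Hspa1b, Hspa5, Atf4, Ddit3 and Xbp1, and at most 4 genes of each other list are named. Gene positions and overlaps come from GENCODE on GRCm38, and promoters from RefSeq.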

Additional observations from a re-analysis of the deposited data

Results flagged for a closer look

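Within each group of 5 libraries, the gap of the highest or lowest library to its neighbour was set against the range of the group. If the 80 groups examined (40 members in Old and in Young) were independent, chance would give about 1 in 20, here 4. They are not independent, since all members were read in the same libraries, so the count is no test of an excess. A library stood apart in 11 of the 80 groups. Old 4 was such a library, above the other Old libraries, for 8 members: Hsp90aa1 (259 CPM), Hsp90ab1 (1294 CPM), Hspa5 (575 CPM), Calr (516 CPM), Canx (395 CPM), Pdia4 (73.6 CPM), Atf4 (139 CPM) and Cct5 (121 CPM). The next highest Old library was at 331 CPM for Hspa5, 343 CPM for Calr and 71.1 CPM for Atf4. Young 5 stood apart for 3 members, as the lowest Young library for Hsp90aa1 (279 CPM) and as the highest for Hspa4 (187 CPM) and Dnajb9 (15.0 CPM).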

How the results depend on the processing

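In Old against Young, 17 members fell and 2 rose over 1995 called genes. With only the 2 groups compared in the fit, 1 member rose (Hspb8) and 14 fell over 1387 called genes. With the clock score as a covariate 501 genes, 3 members lower and 1 higher were called, and Herpud1 turned to -0.21, for which the cause was not tested. Leaving out each library in turn gave 12 to 21 members lower, 1 to 2 higher and 1208 to 2655 genes. DESeq2 gave 18 members lower over 2473 called genes, and no filter gave 17 over 1722.

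In Old + YM against Old, 3 genes were called as the main result, 49 by DESeq2, 6 without a filter, 20 with the 2 groups alone, 38 with the clock score, 1 without Old 4, Old + YM 3 and Old + PM 3 together, and 0 to 39 with a library left out. In Old + PM against Old + YM, 0 genes were called as the main result, 58 by DESeq2, 8 without a filter, 13 with the 2 groups alone, 3 with the clock score, 1 without those 3 libraries, and 0 to 32 with a library left out. No alternative called a member after treatment.

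With the replicate block, 19 members fell and 2 rose over 2104 called genes in Old against Young. In the same setting 6 genes were called in Old + YM against Old and 1 in Old + PM against Old + YM. Same-numbered libraries of Old and Young correlated at -0.06 to 0.13 in their deviations from the group means, and those of Old + PM and Old at -0.09 to 0.16. The main fit was therefore left unpaired, though low correlations cannot show that the libraries were not paired.

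At 8223008 to 10914515 counts a library, Hspb8, with 15 to 137 counts, was the member measured with the fewest reads. Groups of 3 libraries left 95% intervals after treatment wider than many of the Old against Young differences.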
